A study of Arabidopsis thaliana with 18 samples.

Results

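Transcripts of 8 Arabidopsis thaliana genes around the oxidative pentose phosphate pathway were followed through nitrogen starvation and nitrate resupply. They are the 5 genes for 6-phosphogluconolactonases (PGL1 to PGL5), the transketolase gene TKL2, the transaldolase gene TRA2 and the gene for the plastid phosphoglucose isomerase, PGI1. The genes were chosen by locus identifier, with earlier results of these data known. They are 8 of the 33602 gene models counted, and all 8 passed the filter on low counts. Whole seedlings grown in liquid culture were used. The wild type was Col-4, and nlp2-2, 1 line with a T-DNA insertion labelled a knock-out of the nitrate-response regulator NLP2 (AT4G35270), was sampled beside it in the same 3 conditions. Untreated seedlings were 10 days old, starved seedlings had then spent 3 days without nitrogen and were 13 days old, and resupplied seedlings were starved in the same way and then given 3 mM nitrate for a time labelled 30 without a unit. Each of the 6 groups held 3 libraries, which the series calls biological replicates, with 14684639 to 25545031 counted reads in a library. By these protocol ages, age changed together with starvation, although the planting and harvest dates in the labels of 13 libraries span the same number of days for untreated, starved and resupplied seedlings. Nitrate cannot be told apart from handling or elapsed time, since no starved group was sampled at the later time without nitrate.

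The oxidative pentose phosphate pathway burns glucose 6-phosphate to make NADPH. Glucose-6-phosphate dehydrogenase makes a lactone, 6-phosphogluconolactonase opens it, and 6-phosphogluconate dehydrogenase then releases carbon dioxide and yields a pentose phosphate. Transketolase and transaldolase turn pentose phosphates back into hexose and triose phosphates, and phosphoglucose isomerase returns fructose 6-phosphate to glucose 6-phosphate, which can enter the pathway again. In plastids without photosynthesis, NADPH from this pathway drives ferredoxin reduction and so nitrite reduction.

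The labels were first checked on NLP2 itself, which was lower in nlp2 in each condition, with log2 fold changes of -1.85, -2.34 and -1.82 (edgeR quasi-likelihood test, adjusted p = 0.00322, 0.000178 and 0.0016). The tissue label was checked on marker genes. All 5 shoot markers and all 7 root markers had reads in every library, and the 2 seed storage genes together stood at 0 to 3.00 CPM. Levels below are counts per 1e+06 reads (CPM) on scaled library sizes, given as mean ± SD with n = 3 libraries. A gene is called changed where its adjusted p, over the 21347 genes tested, is below 0.05.

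The genes lie on all 5 chromosomes, and 3 of the lactonase genes stand side by side. On the RefSeq assembly TAIR10.1, PGL3 (AT5G24400) runs from 8330243 to 8331963 on chromosome 5, PGL4 (AT5G24410) from 8332420 to 8334129 and PGL5 (AT5G24420) from 8336534 to 8338032, all on the reverse strand. The gaps between them are 456 and 2404 bases and hold 0 annotated genes. PGL1 (AT1G13700) lies on chromosome 1 (4694372 to 4696023, reverse strand) and PGL2 (AT3G49360) on chromosome 3 (18303007 to 18304466, reverse strand). TKL2 (AT2G45290) lies on chromosome 2 (18672497 to 18676484, forward strand), TRA2 (AT5G13420) on chromosome 5 (4301792 to 4304315, reverse strand) and PGI1 (AT4G24620) on chromosome 4 (12708646 to 12712825, reverse strand). Between the lactonases, 59.0% to 72.9% of aligned coding bases were identical, the lowest for PGL1 with PGL5 and the highest for PGL2 with PGL4. The neighbours PGL4 and PGL5 shared 71.7%. The coding sequence of PGL3, the plastid-targeted lactonase, is 978 bases long against 759 to 807 in the others. No stretch of 50 bases from the exons of any of the 8 genes occurs elsewhere in the nuclear chromosomes. PGL1 overlaps AT1G13690 by 39 bases and AT1G05023 by 280 bases, both on the opposite strand, and the sources used here do not state whether strand was used in counting.

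The 300 bases before the annotated gene start are shown for the 3 genes that rose with nitrate, TRA2, PGI1 and PGL4, and for PGL1, which fell with starvation and is the gene whose window held a match to the nitrate-response motif. The sequences are from RefSeq TAIR10.1 and read 5′ to 3′ towards the gene, and capitals mark matches to any of 3 motifs searched on both strands. These are a spaced form of the nitrate-responsive element bound by NLP proteins (half-sites TGNCNNTT and AAG, 10 bases apart), the palindrome GAATATTC bound by repressors of the HRS1 family, and the G-box CACGTG.
TRA2 (chr5:4304316-4304615, reverse strand): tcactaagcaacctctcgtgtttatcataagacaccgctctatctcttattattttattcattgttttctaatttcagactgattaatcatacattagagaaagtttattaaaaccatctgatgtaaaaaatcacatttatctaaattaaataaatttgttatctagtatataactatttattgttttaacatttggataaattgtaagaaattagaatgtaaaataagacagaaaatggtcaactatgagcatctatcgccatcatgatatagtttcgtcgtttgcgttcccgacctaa
PGI1 (chr4:12712826-12713125, reverse strand): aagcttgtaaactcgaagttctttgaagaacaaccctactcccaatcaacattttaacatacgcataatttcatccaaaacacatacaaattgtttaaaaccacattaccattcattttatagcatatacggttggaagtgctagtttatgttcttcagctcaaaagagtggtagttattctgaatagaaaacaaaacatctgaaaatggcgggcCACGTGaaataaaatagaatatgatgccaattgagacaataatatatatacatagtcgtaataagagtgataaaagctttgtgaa
PGL4 (chr5:8334130-8334429, reverse strand): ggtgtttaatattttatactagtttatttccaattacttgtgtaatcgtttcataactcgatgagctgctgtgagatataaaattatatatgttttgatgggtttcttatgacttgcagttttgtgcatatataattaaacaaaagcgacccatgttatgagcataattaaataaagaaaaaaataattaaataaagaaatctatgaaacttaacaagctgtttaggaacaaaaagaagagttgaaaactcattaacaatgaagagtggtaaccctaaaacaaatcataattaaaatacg
PGL1 (chr1:4696024-4696323, reverse strand): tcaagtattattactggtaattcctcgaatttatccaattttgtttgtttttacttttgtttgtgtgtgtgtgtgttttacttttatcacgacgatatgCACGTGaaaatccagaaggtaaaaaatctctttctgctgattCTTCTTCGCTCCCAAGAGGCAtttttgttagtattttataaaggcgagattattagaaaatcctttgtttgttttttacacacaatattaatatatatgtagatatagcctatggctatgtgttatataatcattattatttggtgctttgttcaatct
A nitrate-responsive match stood in 1 of the 8 windows, that of PGL1, against 1.3% of 27443 windows of the same length before protein-coding genes. It lies on the opposite strand, 159 to 139 bases before the gene start. The windows of TRA2 and PGL4 held none of these motifs. A G-box stood in the windows of PGL1, PGL5, TKL2 and PGI1, against 7.09% of all windows, and that of PGI1 lies 85 to 80 bases before the gene. GAATATTC stood in 0 of the 8 windows and in 1.02% of all. The shorter HRS1-family motif GAATC, not in capitals, stood before PGL1 and PGL3 and in 45.01% of all windows. The matches in capitals do not overlap each other, GAATC before PGL1 shares 1 base with the nitrate-responsive match, and the windows of PGL2 and TKL2 reach into a neighbouring gene. No match says only that these letters are not in this window.

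Per length of the gene model the genes spanned a wide range of levels, led by TRA2 and PGI1. In untreated wild type TRA2 stood highest at 90.0 ± 5.2 CPM per kb, followed by PGI1 at 63.8 ± 4.1 and PGL3 at 42.3 ± 4.1. PGL1 (29.6 ± 2.5) and TKL2 (27.7 ± 3.5) did not differ beyond their spread. Below them came PGL2 at 16.0 ± 1.3 and PGL4 at 9.97 ± 0.90, while PGL5 was close to the limit of counting at 1.19 ± 0.66. PGL5 rests on 10 to 70 reads in a library, PGL4 on 100 to 763 and TRA2 on 2211 to 17918. In nlp2 without treatment the values were 86.6 ± 1.6 CPM per kb for TRA2, 62.1 ± 1.8 for PGI1, 45.0 ± 5.4 for PGL3, 28.7 ± 5.8 for TKL2 and 25.8 ± 4.6 for PGL1. PGL2 (14.9 ± 0.6), PGL4 (7.54 ± 1.29) and PGL5 (0.852 ± 0.557) followed as in wild type, and again TKL2 and PGL1 lay within each other's spread.

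After starvation the order in wild type was TRA2 (85.2 ± 1.9 CPM per kb), PGI1 (59.4 ± 1.2), TKL2 (47.5 ± 2.8) and PGL3 (46.3 ± 1.3), of which TKL2 and PGL3 did not differ beyond their spread. PGL2 (15.5 ± 0.8) now stood above PGL1 (10.7 ± 0.6) and PGL4 (9.80 ± 0.65), whose spreads overlapped, and PGL5 was at 1.16 ± 0.28. In starved nlp2 the levels were 88.8 ± 4.3 for TRA2, 58.5 ± 0.9 for PGI1, 46.8 ± 2.9 for PGL3, 46.4 ± 1.9 for TKL2, 15.2 ± 1.2 for PGL2, 8.89 ± 1.19 for PGL1, 6.74 ± 1.76 for PGL4 and 0.755 ± 0.298 for PGL5. After nitrate TRA2 stood at 412 ± 31 CPM per kb in wild type and 320.1 ± 15.7 in nlp2, and PGI1 at 140.4 ± 5.4 and 122 ± 4. PGL3 (51.3 ± 4.8 and 48.2 ± 3.4) and TKL2 (47.7 ± 2.9 and 48.5 ± 3.2) again did not differ beyond their spread. PGL4 reached 24.0 ± 5.4 CPM per kb in wild type, above PGL2 (13.2 ± 0.4) and PGL1 (11.8 ± 1.2). In nlp2 PGL4 was at 12.4 ± 1.6 and PGL2 at 13.4 ± 0.5, with spreads that overlapped, and PGL1 was at 9.57 ± 0.74. PGL5 was the lowest in both, at 2.16 ± 0.29 and 1.07 ± 0.24.

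**Figure D1:**
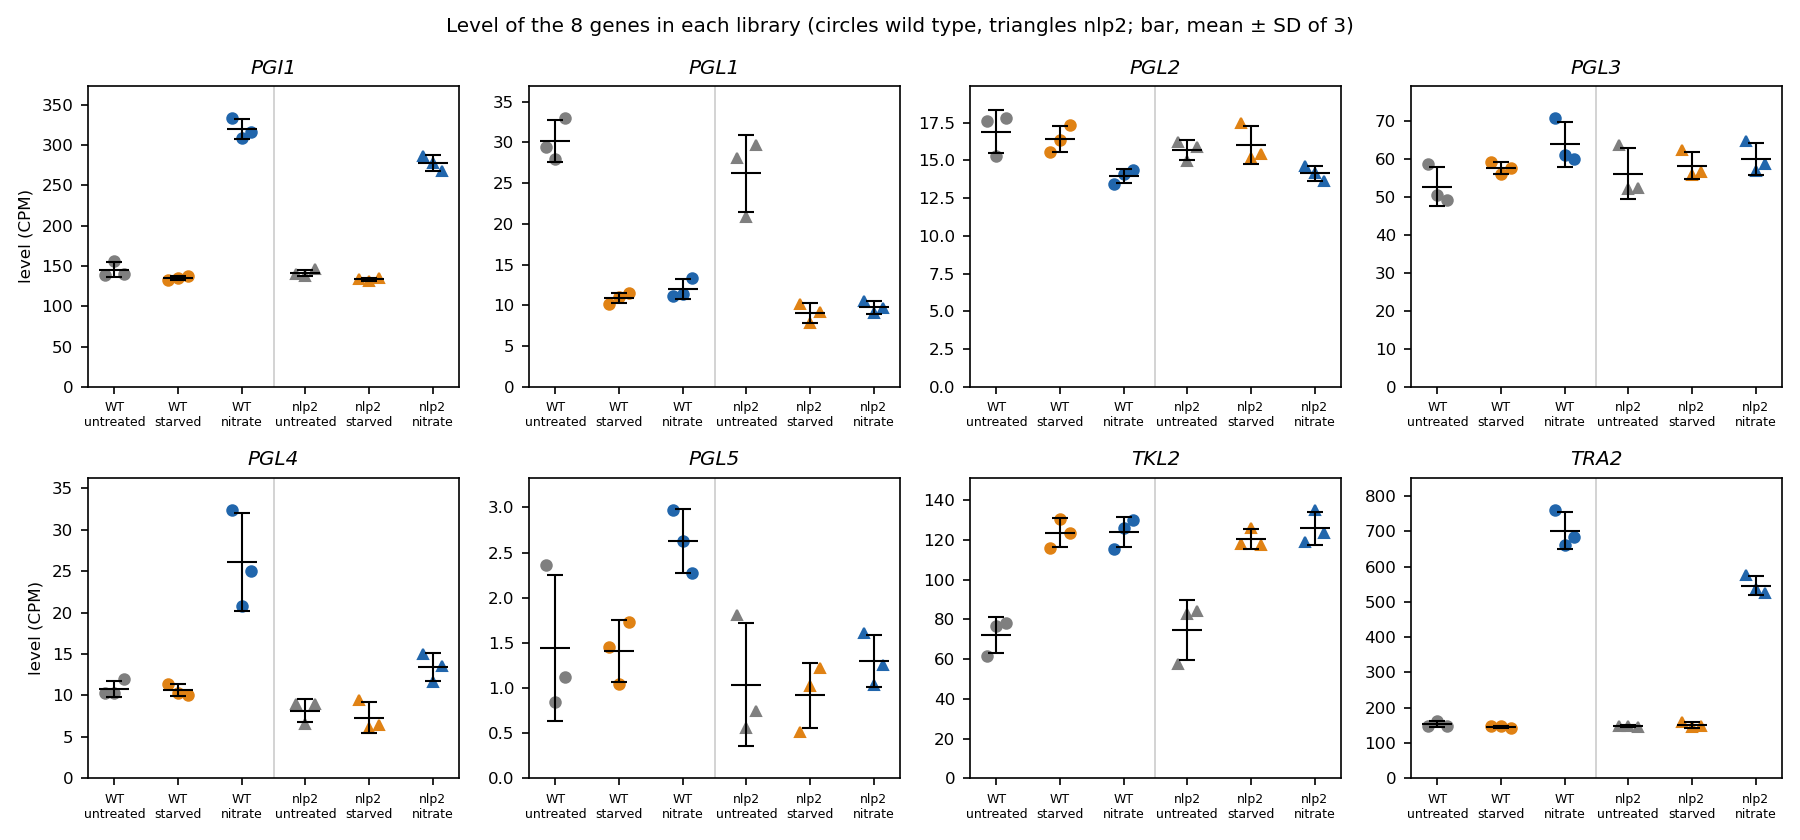
Level of each gene in CPM (vertical axis, from 0, with its own scale in each panel) in the 18 libraries, by group. Circles are wild type and triangles nlp2, and the bar is the mean ± SD of 3 libraries. TRA2 and PGI1 stand apart in the nitrate groups, PGL4 does so only within each genotype, and PGL1 and TKL2 stand apart in the untreated groups. Within the panel of PGL2, and within that of PGL3, the 6 groups lie closer together.

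Nitrate against starvation was compared within each genotype, to see which steps of the pathway respond when nitrate returns. TRA2, PGI1 and PGL4 rose in both genotypes, and none of the 8 genes fell. These are 3 of 8 genes called higher, where 11.2% of all genes tested were called higher in wild type and 9.36% in nlp2. As the genes were chosen with earlier results known, these shares describe the 8 genes and do not test the pathway. Calls lower made up 10.2% and 9.23% of all genes, and calls in either direction 21.4% and 18.6%. The median log2 fold change over the 8 genes was 0.53 in wild type and 0.30 in nlp2, against -0.00074 and -0.0077 over all genes tested.

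TRA2, the transaldolase gene, had the largest change among the 8. Its level was 147, 147 and 142 CPM in the 3 starved wild-type libraries and 761, 660 and 685 CPM after nitrate. In nlp2 it was 159.9, 147 and 147 CPM in the starved libraries and 576, 537 and 524 CPM after nitrate. The groups were far apart in both genotypes. The rise was 4.83-fold in wild type (log2 fold change 2.27 ± 0.08 (SE), edgeR adjusted p = 4.38e-13) and 3.61-fold in nlp2 (1.85 ± 0.08, adjusted p = 9.03e-12). Within each replicate number the log2 ratio was 2.17 to 2.37 in wild type and 1.83 to 1.87 in nlp2.

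PGI1, whose product interconverts fructose and glucose 6-phosphate in the plastid, was at 132, 136 and 138 CPM in starved wild type and at 333, 309 and 316 CPM after nitrate. In nlp2 the values were 134, 131 and 135 CPM before and 287, 278 and 268 CPM after. Every library after nitrate lay above every starved library. The change was 2.36-fold in wild type (log2 1.24 ± 0.07, edgeR adjusted p = 3.58e-10) and 2.08-fold in nlp2 (1.06 ± 0.07, adjusted p = 5.16e-09).

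PGL4 was the lactonase gene that rose. It was at 11.4, 10.3 and 10.1 CPM in starved wild type and at 32.4, 20.8 and 25.1 CPM after nitrate, a change of 2.45-fold (log2 1.3 ± 0.18, edgeR adjusted p = 2.31e-05). In nlp2 it was at 9.51, 6.02 and 6.43 CPM before and 15.1, 11.7 and 13.6 CPM after, a change of 1.83-fold (0.87 ± 0.19, adjusted p = 0.00218). The libraries did not overlap in either genotype. Its neighbour PGL5 was at 1.46, 1.04 and 1.73 CPM in starved wild type and 2.97, 2.63 and 2.27 CPM after nitrate, which was not called (log2 0.91 ± 0.38, adjusted p = 0.103). It was called when only the 6 libraries compared were fitted (log2 0.91, edgeR adjusted p = 0.0186). In nlp2 PGL5 was at 0.50 ± 0.44 (edgeR adjusted p = 0.515), and the groups overlapped.

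PGL3, the neighbour on the other side of PGL4 and the most abundant lactonase transcript per length, was not called. It was at 59.3, 56.2 and 57.8 CPM in starved wild type and at 70.8, 61.3 and 60.0 CPM after nitrate, and at 62.5, 56.0 and 56.6 CPM and 64.9, 56.8 and 58.8 CPM in nlp2. Its log2 fold change was 0.15 with a 95% interval of -0.06 to 0.36 in wild type and 0.04 with an interval of -0.16 to 0.25 in nlp2 (edgeR adjusted p = 0.333 and 0.829). PGL1 gave 0.13 (interval -0.15 to 0.42) and 0.11 (-0.19 to 0.40), and TKL2 gave 0.00 (-0.25 to 0.26) and 0.06 (-0.19 to 0.32). PGL2, a lactonase gene whose 18 libraries lay between 13.5 and 17.8 CPM, was at -0.23 (-0.42 to -0.04) in wild type and -0.18 (-0.37 to 0.01) in nlp2, with adjusted p of 0.0806 and 0.205 in edgeR. All of these intervals lie below the rise of TRA2, PGI1 and PGL4 in the same genotype.

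**Figure D2:**
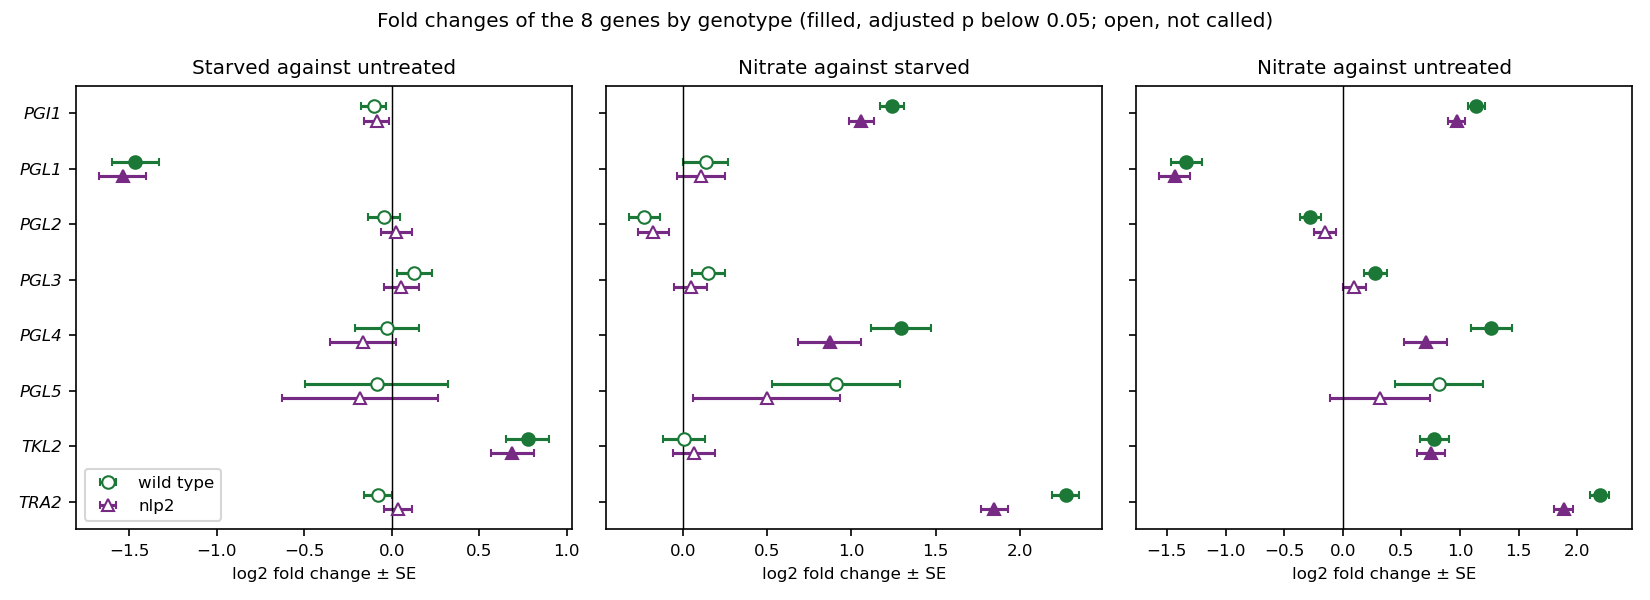
Log2 fold change (horizontal axis, ± SE from edgeR) of each gene in 3 comparisons, wild type as circles and nlp2 as triangles, filled where the adjusted p was below 0.05. PGL1 and TKL2 moved with starvation, TRA2, PGI1 and PGL4 with nitrate, and in each of these cases both genotypes moved the same way.

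Starvation against no treatment moved a different pair. PGL1 fell and TKL2 rose in both genotypes, which makes 1 gene called higher and 1 lower of 8. In wild type 13.8% of all genes were called higher and 15.3% lower, and in nlp2 14.5% and 15.7%, or 29.1% and 30.2% in either direction. The 2 of 8 genes that changed are thus near the share of all genes.

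PGL1 was at 29.5, 27.9 and 33.0 CPM in untreated wild type and at 10.2, 11.1 and 11.5 CPM after starvation. In nlp2 it was at 28.1, 20.8 and 29.7 CPM before and 10.2, 7.78 and 9.19 CPM after. Starvation left 36.2% of the untreated level in wild type (log2 -1.47 ± 0.13, edgeR adjusted p = 1.97e-07) and 34.4% in nlp2 (-1.54 ± 0.13, adjusted p = 1.27e-07). AT1G13690, which overlaps PGL1 on the other strand, was at -0.03 ± 0.15 in wild type and -0.15 ± 0.14 in nlp2 (edgeR adjusted p = 0.916 and 0.475), with means of 17.7 to 19.7 CPM in these 4 groups. AT1G05023, which overlaps PGL1 by more bases, is not among the gene models counted and so has no value here. The 5 shoot markers are all photosynthesis genes, and RCA among them is also in the Calvin cycle list below. They moved the same way as PGL1. Their summed level ran from 34816 to 41045 CPM in untreated and 15114 to 18318 CPM in starved wild type, and from 26754 to 39832 and 11758 to 15749 CPM in nlp2. All 5 were called lower in both genotypes, with median log2 fold changes of -1.04 and -1.13. Root markers summed to 146 to 153 CPM in untreated and 154 to 160.0 CPM in starved wild type, and to 134 to 148 and 147 to 175 CPM in nlp2, with 1 of 7 called lower in each genotype (SCR) and 1 called higher in nlp2 (COBL9), both named after their values were seen. The part of a change in shoot tissue in the fall of PGL1 was not tested, and in whole seedlings fewer cells of a type and less RNA per cell cannot be told apart.

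TKL2, a transketolase gene, moved the other way. It was at 61.6, 76.5 and 77.9 CPM in untreated wild type and at 116, 131 and 124 CPM after starvation, a change of 1.72-fold (log2 0.78 ± 0.12, edgeR adjusted p = 9.69e-05). In nlp2 it was at 57.3, 82.6 and 84.1 CPM before and 118, 126 and 117 CPM after, or 1.61-fold (0.69 ± 0.12, adjusted p = 0.0003). Its paralog TKL1, a Calvin cycle enzyme as well, went the opposite way in the same libraries, from 480 ± 19 to 287 ± 9 CPM per kb in wild type (log2 -0.74 ± 0.08, edgeR adjusted p = 1.32e-06). TKL1 then rose with nitrate by 1.60 ± 0.08 in wild type and 1.44 ± 0.08 in nlp2 on the log2 scale, while TKL2 did not pass the test. TKL2 was thus high where TKL1 was low in starved seedlings, yet remained far below it per length, at 47.5 ± 2.8 CPM per kb.

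The 3 genes that rose with nitrate were near their untreated level when starved. The log2 fold change with starvation was -0.08 for TRA2 (interval -0.25 to 0.09), -0.10 for PGI1 (-0.25 to 0.05) and -0.03 for PGL4 (-0.41 to 0.36) in wild type. In nlp2 the values were 0.04 (-0.13 to 0.20), -0.09 (-0.24 to 0.07) and -0.16 (-0.56 to 0.24). These intervals exclude a fall as large as the estimate of the later rise in the same genotype. For PGL4 in nlp2 the rise has an interval of 0.48 to 1.26, which overlaps the possible fall in size.

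Resupplied seedlings were therefore also compared with untreated ones, a comparison that shares its libraries with those above and carries the same difference in protocol age. TRA2 stood 4.57-fold above untreated in wild type (log2 2.19 ± 0.08, edgeR adjusted p = 6.63e-13) and 3.70-fold in nlp2 (1.89 ± 0.08, adjusted p = 7.15e-12). PGI1 stood 2.20-fold and 1.96-fold above, and PGL4 2.41-fold and 1.63-fold. PGL1 was still at 39.7% and 37.0% of untreated, with 11.1, 11.4 and 13.4 CPM in resupplied wild type and 10.5, 9.04 and 9.65 CPM in nlp2. TKL2 stayed at 1.72-fold and 1.69-fold, with 116, 126 and 130.1 CPM in resupplied wild type and 119, 135 and 124 CPM in nlp2. In all, 5 of 8 genes were called higher and 2 lower in wild type and 4 higher and 1 lower in nlp2. Over all genes 21.7% were called higher and 19.8% lower in wild type, and 19.6% and 19% in nlp2, which is 41.5% and 38.6% in either direction. The additional wild-type calls were small, PGL3 at 1.21-fold (log2 0.28 ± 0.10, edgeR adjusted p = 0.0314) and PGL2 at -0.28 ± 0.09 (adjusted p = 0.0196). The PGL3 call was lost with DESeq2 size factors (edgeR adjusted p = 0.0513), without the filter (0.111), with only the 6 libraries compared (0.0845) and without untreated replicate 2 (0.148) or 3 (0.179) or resupplied replicate 1 (0.159). The PGL2 call was lost without untreated replicate 1 or 3 or resupplied replicate 1 (edgeR adjusted p = 0.0682, 0.0611 and 0.0684). PGL5, at 0.82 ± 0.38 (edgeR adjusted p = 0.0886), was called without untreated replicate 1 (1.38, adjusted p = 0.0159) and under the replicate block (0.87, adjusted p = 0.0367).

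These shifts changed the make-up of the lactonase transcripts. PGL3 held 42.7% ± 3.1 of the summed lactonase level per length in untreated wild type (SD, n = 3), 55.4% ± 1.0 when starved and 50.1% ± 1.8 after nitrate. The share of PGL1 went from 29.9% ± 2.2 to 12.8% ± 0.8 and 11.6% ± 1.8. The share of PGL4 went from 10.1% ± 0.9 to 11.7% ± 0.8 and 23.3% ± 3.2, so that it passed PGL1 and PGL2 after nitrate. In nlp2 PGL3 held 47.9% ± 3.4, 59.8% ± 1.4 and 57.0% ± 0.3, PGL1 27.3% ± 3.1, 11.3% ± 0.8 and 11.3% ± 0.1, and PGL4 7.98% ± 0.70, 8.53% ± 1.46 and 14.6% ± 0.9. After nitrate the share of PGL4 thus overlapped that of PGL2 (15.9% ± 0.9) in nlp2. The summed level itself was 99.1 ± 5.9 CPM per kb in untreated, 83.5 ± 1.6 in starved and 102 ± 9 in resupplied wild type, and 94.0 ± 10.5, 78.3 ± 6.6 and 84.6 ± 6.1 in nlp2.

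**Figure D3:**
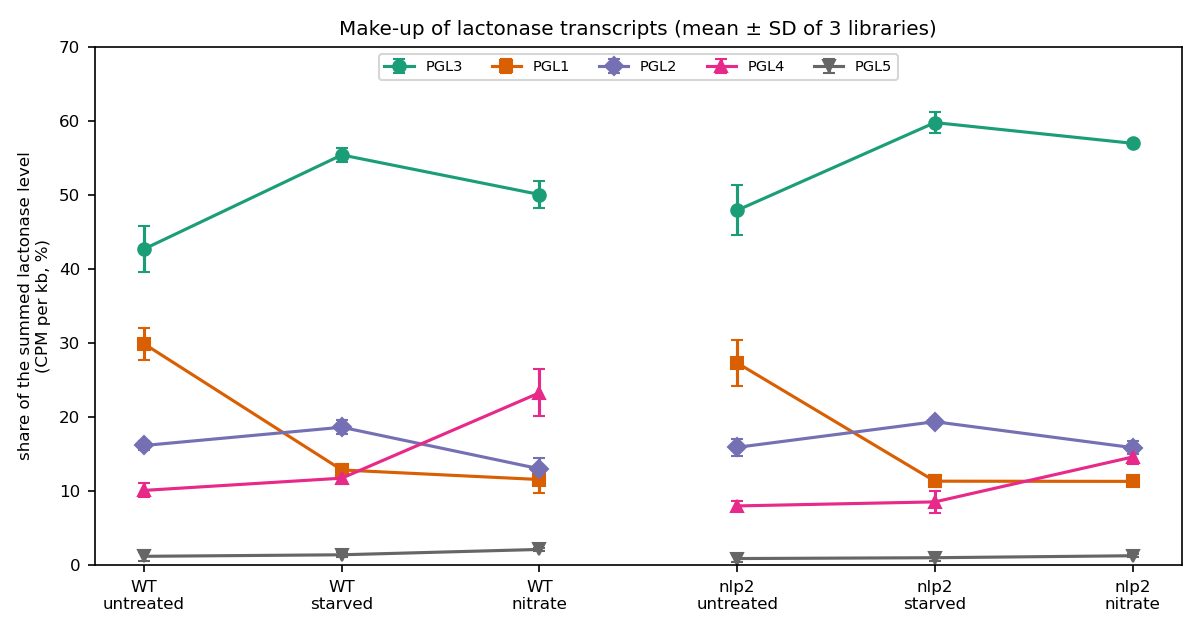
Share of each lactonase gene in the summed lactonase level (vertical axis, percent of the sum in CPM per kb) by group, as mean ± SD of 3 libraries, with lines joining the conditions of a genotype. The share of PGL1 drops with starvation in both genotypes, that of PGL4 climbs with nitrate, to 23.3% in wild type and 14.6% in nlp2, and PGL3 stays the largest.

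The genotypes were compared in each condition, to see whether these transcripts differ in the nlp2 line. With 1 insertion line, an effect of NLP2 cannot be told apart from other differences of the line. After nitrate, PGL4 and TRA2 were lower in nlp2, 2 of 8 genes where 0.422% of all genes were called lower and 0.787% in either direction. Without treatment and after starvation 0 of 8 genes were called with edgeR and 0 with DESeq2, while 0.361% and 0.365% of all genes were called. At an unadjusted p below 0.05, 1 gene of the 8 passed in each of these conditions with either tool. Over all genes, 1286 and 1239 of 21347 passed that limit with edgeR, and 1218 and 1201 genes with DESeq2. After nitrate 5 of the 8 passed it with edgeR and 4 with DESeq2, against 1558 and 1536 of all genes. The counts over all genes rose under a replicate block from 77 to 143 without treatment, from 78 to 137 after starvation and from 168 to 360 after nitrate, and those over the 8 genes did not change.

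PGL4 after nitrate was at 20.8 to 32.4 CPM in wild type and 11.7 to 15.1 CPM in nlp2, or 51.3% of wild type (log2 -0.96 ± 0.17, edgeR adjusted p = 0.00795). Every nlp2 library lay below every wild-type library in the other conditions too. PGL1 separated in the same way after starvation and after nitrate, and PGL5 after nitrate, in each case without a call. How often genes at large separate in this way was not counted, here or for PGI1 below. The log2 values of PGL4 were -0.40 ± 0.19 without treatment and -0.54 ± 0.19 after starvation, which were not called (edgeR adjusted p = 0.802 and 0.505). The PGL4 call after nitrate was lost when only the 6 libraries compared were fitted (log2 -0.95, edgeR adjusted p = 0.0782) and without nlp2 replicate 2 (-0.87, adjusted p = 0.0722).

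TRA2 after nitrate was at 77.7% of wild type in nlp2 (log2 -0.36 ± 0.08, edgeR adjusted p = 0.0328), and the ranges of 524 to 576 CPM and 660 to 761 CPM did not overlap. In all 3 replicate numbers nlp2 was lower, by log2 ratios of -0.40 to -0.30. Without treatment TRA2 was at -0.06 ± 0.08 and after starvation at 0.06 ± 0.08 (edgeR adjusted p = 0.999621 and 1). The call after nitrate was lost without the filter (log2 -0.35, edgeR adjusted p = 0.0746), with only the 6 libraries compared (adjusted p = 0.177), without wild-type replicate 1 (0.145) or 3 (0.104) and without nlp2 replicate 2 (0.163) or 3 (0.168). PGI1 was lower in every nlp2 library after nitrate but was not called with edgeR (log2 -0.20 ± 0.07, adjusted p = 0.343), and it was called with DESeq2 (adjusted p = 0.0461). Shoot markers summed to 14224 to 15247 CPM in wild type and 10913 to 12860 CPM in nlp2 after nitrate, with 0 of 5 called, and root markers to 162 to 179 and 149.7 to 169.9 CPM, with 0 of 7 called. Their part in the genotype differences was not tested. PGL5 (-1.03 ± 0.38, adjusted p = 0.393) and PGL1 (-0.30 ± 0.14, adjusted p = 0.629) were not called with edgeR, and TKL2, PGL2 and PGL3 lay between -0.09 and 0.02.

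Whether the response itself differed between the genotypes was tested as an interaction. The rise of TRA2 with nitrate was smaller in nlp2 by 0.42 ± 0.11 on the log2 scale (value -0.42, interval -0.66 to -0.19), with an unadjusted p of 0.0014 and an edgeR adjusted p of 0.999953 over all genes. Over the 17 alternative settings of edgeR and DESeq2, the lowest adjusted p of this TRA2 difference was 0.120. The difference was -0.42 (interval -0.96 to 0.11) for PGL4, -0.42 (-1.65 to 0.82) for PGL5 and -0.18 (-0.40 to 0.03) for PGI1. PGL3 (-0.10), PGL1 (-0.03), PGL2 (0.05) and TKL2 (0.06) were closer to 0. With edgeR 0 of 8 and 0 of all genes were called (1 and 313 of the 21347 tested at an unadjusted p below 0.05), and with DESeq2 0 of 8 and 2 of all genes (2 and 277). The main fit held no replicate term, although same-number libraries of nlp2 and wild type deviated together (residual correlation 0.19 to 0.53). The absence of calls thus does not show that the genotypes responded equally. For the starvation response the 8 differences lay between -0.14 and 0.12, and 0 of 8 were called with either tool (0 at an unadjusted p below 0.05). The intervals for TKL2 (-0.45 to 0.28) and PGL1 (-0.47 to 0.32) bound the difference in the genes that moved with starvation.

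The rest of the pathway was described from lists of the known genes. Of 9 oxidative dehydrogenase genes, 4 rose with nitrate in each genotype. These were the glucose-6-phosphate dehydrogenase genes G6PD3 (log2 5.72 ± 0.10 in wild type and 5.39 ± 0.10 in nlp2) and G6PD2 (3.37 ± 0.11 and 3.05 ± 0.11) and the 6-phosphogluconate dehydrogenase genes PGD3 (3.76 ± 0.08 and 3.40 ± 0.08) and PGD1 (2.60 ± 0.08 and 2.26 ± 0.07). The remaining called gene of that list, G6PD1, fell (-0.50 ± 0.09 and -0.36 ± 0.09) and is named after its values were seen. The list's median was 0.11 in both genotypes. The lactonase step lies between those of the dehydrogenases. Of the 5 lactonase genes PGL4 was the 1 called, near the 21.4% and 18.6% of all genes called. Its log2 fold changes of 1.3 and 0.87 were below those of the 4 dehydrogenase genes that rose. PGL3, the plastid-targeted lactonase gene, was not called (0.15 and 0.04). Whether the products of PGL4 and of these dehydrogenase genes share a compartment was not examined.

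Of 9 other genes of the non-oxidative branch, TKL1 was the 1 that rose with nitrate in each genotype, and 0 fell. The list's median was 0.06 in wild type and 0.02 in nlp2. With starvation 6 of these 9 fell and 0 rose in both genotypes (median -0.49 in each), opposite to TKL2. All 10 Calvin cycle genes, which share transketolase and the pentose phosphate enzymes of the plastid, fell with starvation, with a median of -0.90 in wild type and -0.96 in nlp2. With nitrate 5 of the 10 fell further in wild type and 4 in nlp2, among them the phosphoribulokinase gene PRK (-0.51 ± 0.10 and -0.52 ± 0.10) and the aldolase gene FBA1 (-0.50 ± 0.11 and -0.57 ± 0.11). Of 9 genes that supply hexose phosphates, the plastid glucose 6-phosphate importer GPT1 rose with nitrate in both genotypes (0.35 ± 0.08 and 0.37 ± 0.08, edgeR adjusted p = 0.00314 and 0.00208). The cytosolic isoform of the isomerase (AT5G42740) rose in wild type by 0.30 ± 0.09 (adjusted p = 0.0261, edgeR) and stood at 0.22 ± 0.09 in nlp2 (adjusted p = 0.122), against 1.24 and 1.06 for PGI1. All 6 genes of nitrate reduction and its electron supply rose, with a median of 3.80 in wild type and 3.43 in nlp2. After nitrate, G6PD3 (-0.42 ± 0.08), PGD1 (-0.38 ± 0.07) and PGD3 (-0.35 ± 0.08) were lower in nlp2, close to the -0.36 of TRA2 (edgeR adjusted p = 0.0171, 0.00994 and 0.0318). The remaining 6 of the 9 dehydrogenase genes were not called, and the list's median was -0.16. Over all genes 0.422% were called lower in this comparison. Alternative settings were not run for the dehydrogenase genes.

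**Figure D4:**
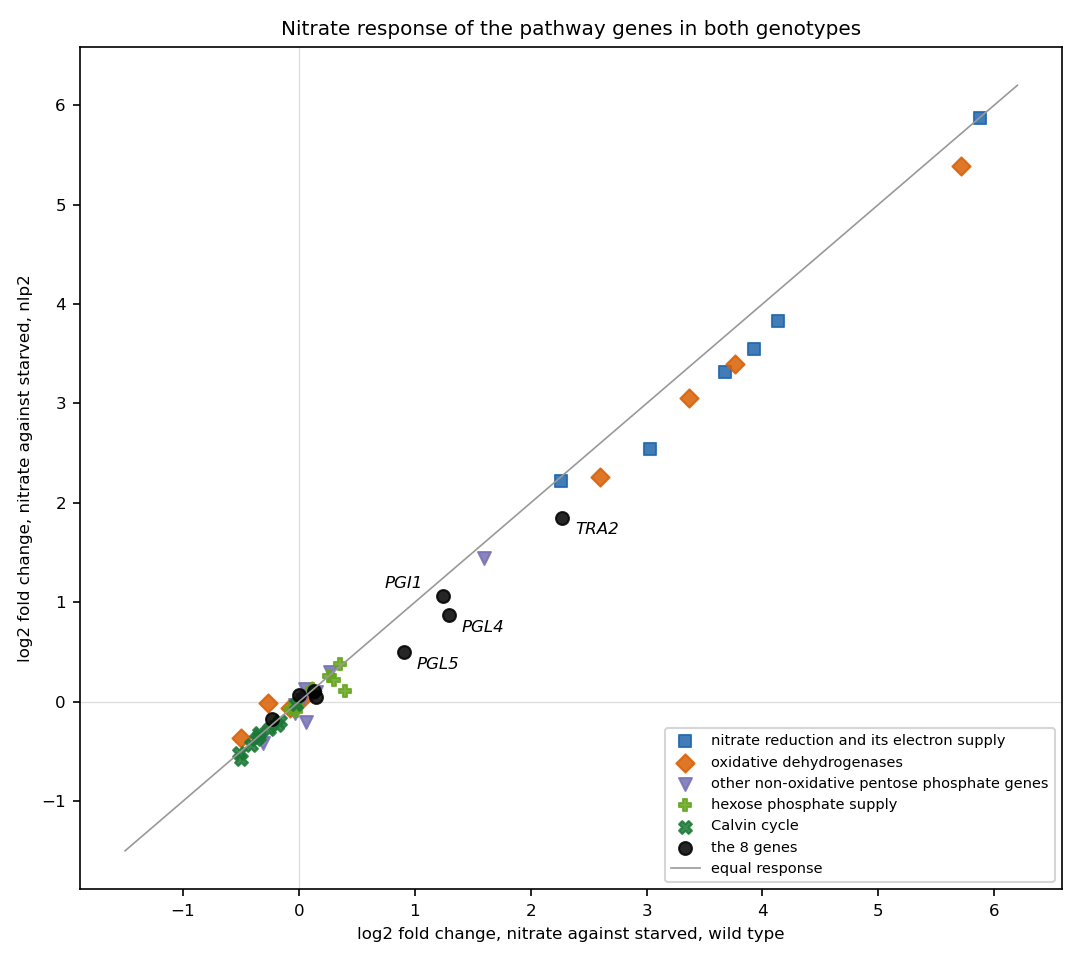
Log2 fold change with nitrate in wild type (horizontal axis) and in nlp2 (vertical axis), 1 point for each gene of the pathway lists, with the 8 genes as black circles and a line of equal response. TRA2, PGL4 and PGI1 rise in both genotypes and lie below the line, and PGL4 and PGI1 lie at lower values than the dehydrogenase and nitrate reduction genes that rose.

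Over the 18 libraries, the genes closest in pattern to TRA2 were the phosphoglycerate mutase gene PGM (AT1G78050, Pearson r = 0.998 of log2 CPM), the root ferredoxin gene FD3 (0.996) and PGI1 (0.996). The closest to PGI1 were TRA2 (0.996), AT5G65030 (0.995) and PGM (0.995). For PGL4 they were AT3G52360 (0.930), AT4G36860 (0.924) and the cytosolic invertase gene CINV1 (0.923), and PGL4 correlated with TRA2 at 0.827. PGL1 was closest to DIN10 (0.984), a raffinose synthase gene, DELTA-TIP (0.983), a tonoplast aquaporin gene, and AT5G22920 (0.983). TKL2 was closest to ARF2 (0.975), an auxin response factor gene, TRM15 (0.974) and AT3G50650 (0.970), and the r of TKL2 with PGL1 was -0.909. PGL3 (at most 0.924, with AT1G13195), PGL2 (0.906, with STN7) and PGL5 (0.835, with AT1G58235) had lower best values. All of these values carry the differences between the 6 groups and were computed on shared libraries, so they describe patterns and are not tested.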

How the data were processed

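RNA of 18 seedling libraries was poly(A)-selected and sequenced stranded from 1 end, per the labels' protocols. The deposited values are raw counts of reads per gene model, made by the authors with sam2pkm after reads with an equally good second hit were removed (1.90% to 2.17% of mapped reads), per the file headers. The submitters' processing notes name Bowtie2 and TAIR10, with versions, annotation and use of strand not given in the sources used here. Column sums equalled the header totals in all 18 libraries, and 96.97% to 98.53% of reads were mapped. The gene model lengths used for CPM per kb are the other deposited column, per the file headers, and match no RefSeq transcript length of the 8 genes exactly. RefSeq TAIR10.1 gave positions and sequences.

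The test was that of edgeR 4.0.16 in R 4.3.3 (filterByExpr with a count minimum of 10 and total minimum of 15, TMM, robust quasi-likelihood fit of 6 group means to all 18 libraries, 12 residual degrees of freedom, Benjamini-Hochberg adjustment over 21347 genes in each comparison). Standard errors were derived from the F statistic. Intervals are 95% intervals of the log2 fold change. Alternatives were DESeq2 1.42.0, its size factors in edgeR, no filter, a replicate block, only the groups compared, and each replicate left out. The genes, lists and comparisons were chosen with earlier results of these data known. Named genes are the 8, NLP2, up to 4 called genes of each list by smallest p in the nitrate comparisons, and the 3 genes of highest r (mean of at least 5 CPM) for each of the 8. AT1G13690 was added for its overlap with PGL1, and G6PD1, SCR and COBL9 were named after their values were seen. RCA was named for being in both the shoot marker and the Calvin cycle lists.

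Replicate numbers go with 1 planting month each in the 13 libraries whose labels give a date, which include all of nlp2 and untreated wild type. Starved wild type and 2 of 3 resupplied wild-type libraries carry no date. Same-number libraries deviated together in 20 of 27 pairs (correlation over 0.1, range -0.06 to 0.53), and in all pairs of nlp2 with wild type. Replicates all differed beyond sampling noise (chi-square per degree of freedom of at least 6.55).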

Additional observations from a re-analysis of the deposited data

How the results depend on the processing

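The counts of the 8 genes called were the same or within 1.5 times under every alternative, with the exception of nlp2 against wild type after nitrate. There 2 were called, against 1 without the filter, 0 with only the groups compared and 0 to 2 with a replicate left out. Over all genes, DESeq2 and the replicate block called more genes than edgeR by genotype, at 149 and 143 against 77 without treatment, 149 and 137 against 78 after starvation and 293 and 360 against 168 after nitrate. With only the groups compared the numbers were 17, 168 and 104, and with a replicate left out 35 to 67, 37 to 59 and 81 to 201. The genotype difference in the nitrate response had 0 genes called, and 2 with DESeq2. That in the starvation response had 0, and 2 with DESeq2 and 1 with the replicate block. In wild type with nitrate against no treatment PGL5 was called under the replicate block (0.87, edgeR adjusted p = 0.0367), and the block changed no other call of the 8 genes. The cause of these differences was not tested. TKL2 with nitrate in wild type changed sign without the filter (-0.018 against 0.0041). With a replicate left out, values of genes that were not called crossed 0, with these log2 ranges: for nitrate against starvation in wild type, TKL2 -0.039 to 0.052; for nitrate against starvation in nlp2, PGL3 -0.013 to 0.096; for starvation against no treatment in wild type, PGL4 -0.085 to 0.030 and PGL5 -0.35 to 0.47; for starvation against no treatment in nlp2, PGL2 -0.047 to 0.068, PGL3 -0.035 to 0.15, PGL5 -0.50 to 0.45 and TRA2 -0.0047 to 0.058; for nitrate against no treatment in nlp2, PGL5 -0.0074 to 0.96; for nlp2 against wild type without treatment, PGL3 -0.026 to 0.18, PGL5 -1.18 to 0.055, TKL2 -0.047 to 0.20 and PGI1 -0.064 to 0.013; for nlp2 against wild type after starvation, PGL2 -0.10 to 0.0052, PGL3 -0.037 to 0.045 and TKL2 -0.078 to 0.0079; for nlp2 against wild type after nitrate, PGL2 -0.0091 to 0.042 and TKL2 -0.030 to 0.063; for the genotype difference in the nitrate response, PGL1 -0.13 to 0.069; for the genotype difference in the starvation response, PGL1 -0.23 to 0.030, PGL3 -0.16 to 0.041, PGL5 -0.67 to 0.56, TKL2 -0.24 to 0.011 and PGI1 -0.033 to 0.044. Depth limits PGL5, whose reads were few in every library.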
